A study of Gallus gallus with 9 samples.

Results

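Transcript levels of 10 myosin chain genes were followed through chicken myoblast culture. The genes were taken by symbol, as rows named MYL1, MYL2, MYL3, MYL4, MYL9, MYL10, MYH7B, MYH9, MYH10 or MYH11 in all 9 tables. All 10 symbols were found, each on 1 row, among 24881 listed genes with an Ensembl identifier, and all 10 had enough reads to be tested. MYL1, MYL2, MYL3, MYL4, MYL10 and MYH7B are described as sarcomeric, and MYL9, MYH9, MYH10 and MYH11 as smooth muscle and nonmuscle chains. MYL10 is counted as sarcomeric by the grouping used here, and its role in chicken muscle is less well described.

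RNA sequencing libraries were made from primary myoblasts of chicken embryo skeletal muscle, with 3 libraries in each of 3 groups and every sample labelled passage 1. PM cells were taken directly after serial plating, GM cells, labelled proliferating myoblasts, were grown in RPMI-1640 with 15% fetal bovine serum, and DM cells had spent 4 days in RPMI-1640 with 2% horse serum and are labelled differentiated myotubes. All media held 2% penicillin and streptomycin, the labels name no genetic change, and the comparisons ask how transcript levels differ between the 3 culture states. Nothing in the labels ties replicates to separate embryos or cultures, and the p-values therefore cover the variation among these libraries alone, which may be technical.

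The tables held 16052542 to 27546527 counted reads per library, and 14796 genes were tested. Each PM table lists 25950 features and each GM or DM table lists 26591, and a batch of processing cannot be told apart from the PM state. Skeletal muscle genes were present in every library. The myogenic factors MYF5, MYOD1 and MYOG reached at least 30.1, 136 and 167 FPKM in all 9 (FPKM, fragments per kilobase of transcript scaled to library size, so that levels of genes of unequal length can be compared). Comparisons between genes depend on the lengths behind FPKM, which are described with the processing. GM replicate 3 stood apart from the other GM libraries in several sarcomeric genes and in genes of other kinds, and its effect on several results is given below.

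Conventional myosin, the motor of contraction, is a hexamer of a pair of heavy chains, each of which carries an essential and a regulatory light chain. The heavy chain holds the ATPase head and the tail that packs into filaments, and the light chains stiffen the neck of the head and tune its activity. Developing skeletal muscle is known to switch among sarcomeric chains of embryonic, fast and slow type, while nonmuscle and smooth muscle chains drive cell shape, adhesion and stress fibres in dividing cells. Among the members, MYL1, MYL3 and MYL4 encode essential light chains and MYL2, MYL9 and MYL10 regulatory light chains. MYH7B encodes a sarcomeric heavy chain related to slow myosin, MYH9 and MYH10 the nonmuscle heavy chains IIA and IIB, and MYH11 the smooth muscle heavy chain.

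The sarcomeric members did not move as a block, and neither did the smooth and nonmuscle members. MYL10 and MYH11 rose at each step, while MYL3 and MYL9, from different classes, were lowest in GM. MYL1, MYL2, MYL4, MYH7B and MYH9 had their highest mean levels in GM, but of these only MYL2 and MYL4 were called lower in DM than in GM. MYL4 was low in DM alone and MYH10 was high in DM alone. Mean FPKM in PM ran from 467 for MYL9, rank 227 of the listed genes, down to 0.126 for MYH7B, rank 15616.

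**Figure D1:**
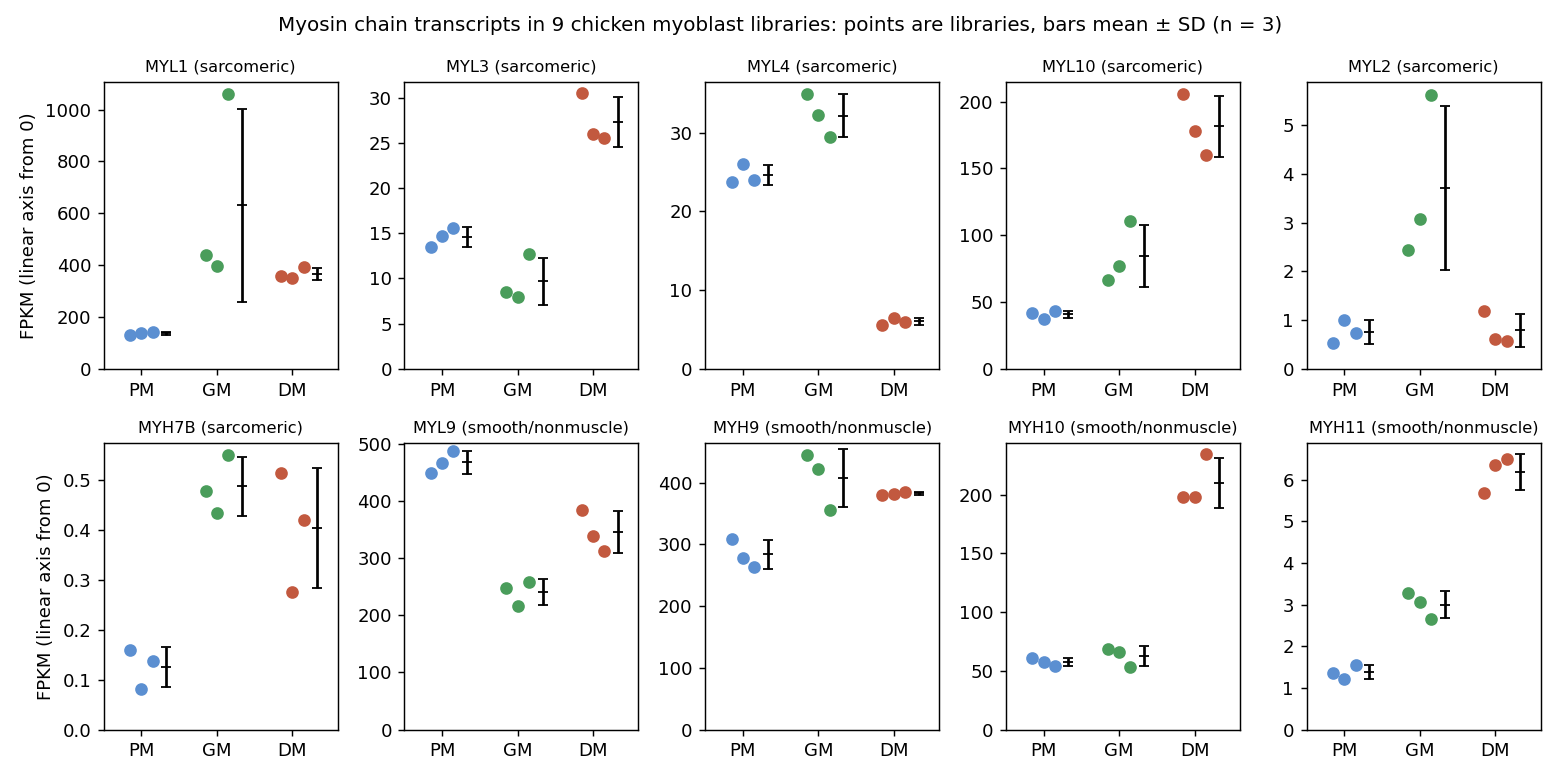
FPKM of each member (linear axes from 0, a scale for each panel) in PM, GM and DM libraries, with points for libraries and bars for mean ± SD of 3. MYL1 in GM replicate 3 stood at 1059 FPKM against 438 and 396 FPKM in the other GM libraries, whereas MYH10 was at 198 to 235 FPKM in DM and at no more than 68.8 FPKM elsewhere.

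The order of levels changed between groups. In PM it ran MYL9, MYH9, MYL1, MYH10, MYL10, MYL4, MYL3, MYH11, MYL2 and MYH7B from high to low, and no neighbours in that order overlapped. In GM it began with MYL1 and MYH9, whose ranges overlapped, followed by MYL9. MYL10 overlapped with MYH10 and MYL2 with MYH11. In DM the first 3, MYH9, MYL1 and MYL9, had means of 383, 366 and 345 FPKM, and each overlapped with the next in order. MYH10 and MYL10 also overlapped in DM, as did MYH11 and MYL4. MYH7B was last in every group.

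MYL1 encodes the fast skeletal essential light chains, and its transcripts for the long and the short chain cannot be separated in gene counts (ENSGALG00000002907, chromosome 7, 2770680 to 2788461, minus strand, build not given in the sources used here). It stood at 132, 138 and 143 FPKM in PM, 438, 396 and 1059 FPKM in GM and 358, 349 and 392 FPKM in DM. All GM and all DM libraries lay above all PM libraries, and GM replicate 3 was far above every other library. MYL1 rose in GM against PM (log2 fold change 2.06, SE 0.37, adjusted p = 0.00127 by edgeR) and in DM against PM (log2 fold change 1.32, SE 0.36, adjusted p = 0.0116 by edgeR). Without GM replicate 3 the log2 fold change in GM against PM was 1.43. In DM against PM it stayed at 1.32 without that library, with a far lower p (adjusted p = 1.67e-09 by edgeR). A fit of the PM and DM libraries alone also gave 1.32 (adjusted p = 5.04e-09 by edgeR). With all libraries, the log2 fold change in DM against GM was -0.74 (SE 0.35, adjusted p = 0.102 by edgeR), although the DM values lay below all GM values. That difference depended on single GM libraries, with a log2 fold change of -0.11 without GM replicate 3 (adjusted p = 0.213 by edgeR) and a called fall without GM replicate 2 (adjusted p = 0.0295 by edgeR).

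MYL4, the essential light chain of embryonic muscle and of the atria, fell sharply in DM (ENSGALG00000000585, chromosome 27, 3015291 to 3020580, plus strand). It stood at 23.7, 26.0 and 24.0 FPKM in PM, 34.9, 32.2 and 29.4 FPKM in GM and 5.62, 6.52 and 5.93 FPKM in DM. Each DM library was below every other library by a wide margin. The log2 fold change was -2.36 in DM against GM (SE 0.11, adjusted p = 2.31e-08 by edgeR) and -2.12 in DM against PM (SE 0.11, adjusted p = 5.16e-08 by edgeR). The smaller difference of GM against PM missed the threshold, although the ranges did not overlap (log2 fold change 0.24, SE 0.10, adjusted p = 0.0553 by edgeR). Under 9 of 19 alternatives it passed, DESeq2 among them (DESeq2 adjusted p = 0.0461).

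MYL3, the essential light chain of slow and ventricular muscle, was lowest in GM and highest in DM (ENSGALG00000005448, chromosome 2, 3458925 to 3493540, minus strand). It stood at 13.5, 14.7 and 15.6 FPKM in PM, 8.46, 7.94 and 12.7 FPKM in GM and 30.5, 26.0 and 25.5 FPKM in DM. The 3 groups did not overlap, and GM replicate 3 came closest to PM. MYL3 fell by 0.73 on the log2 scale in GM against PM (SE 0.18, adjusted p = 0.00450 by edgeR). It rose in DM against GM (log2 fold change 1.54, SE 0.18, adjusted p = 2.32e-05 by edgeR) and in DM against PM (log2 fold change 0.81, SE 0.18, adjusted p = 0.00188 by edgeR).

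MYL10, a regulatory light chain, rose at each step (ENSGALG00000001793, chromosome 19, 3725134 to 3746093, minus strand). It stood at 41.6, 37.6 and 43.1 FPKM in PM, 66.1, 77.2 and 110 FPKM in GM and 206, 178 and 160 FPKM in DM, with no overlap between groups. The log2 fold changes were 0.91 in GM against PM (SE 0.19, adjusted p = 0.00216 by edgeR) and 1.15 in DM against GM (SE 0.19, adjusted p = 5.10e-04 by edgeR). Without GM replicate 3 they were 0.65 and 1.42. Between DM and PM the fitted fold was 4.18 (log2 fold change 2.06, SE 0.19, adjusted p = 1.14e-05 by edgeR).

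MYL2 and MYH7B were the sparsest members, and their values rest on few reads. MYL2, the regulatory light chain of slow and ventricular muscle (ENSGALG00000004582, chromosome 15, 6081766 to 6085776, minus strand), had 6, 12 and 11 reads in PM, 43, 51 and 111 reads in GM and 20, 10 and 9 reads in DM. Its FPKM were 0.521 to 1.00 in PM, 2.44 to 5.62 in GM and 0.573 to 1.19 in DM, so GM stood above both other groups, which overlapped. MYL2 rose in GM against PM (log2 fold change 2.16, SE 0.43, adjusted p = 0.00104 by edgeR) and fell by 2.17 on the log2 scale in DM against GM (SE 0.41, adjusted p = 8.33e-04 by edgeR). Between DM and PM the log2 fold change was -0.013 with an SE of 0.50.

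MYH7B was at most 0.550 FPKM in any library (ENSGALG00000030985, chromosome 20, 2722336 to 2748121, minus strand). It had 15, 8 and 17 reads in PM, 69, 59 and 89 reads in GM and 71, 37 and 54 reads in DM. GM and DM libraries lay above PM libraries in FPKM and overlapped with each other. MYH7B rose in GM against PM (log2 fold change 1.79, SE 0.32, adjusted p = 4.35e-04 by edgeR) and in DM against PM (log2 fold change 1.58, SE 0.32, adjusted p = 0.00118 by edgeR). Between DM and GM the change was -0.22 on that scale (SE 0.27, adjusted p = 0.511 by edgeR). A gene of 91 bases without a symbol lies within it on the same strand and had 0 reads in every library.

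MYL9, the regulatory light chain of smooth muscle and nonmuscle myosin, was lowest in GM and intermediate in DM (ENSGALG00000028567, chromosome 20, 488107 to 494909, minus strand). It stood at 448, 466 and 487 FPKM in PM, 248, 216 and 258 FPKM in GM and 385, 339 and 312 FPKM in DM, and no groups overlapped. It fell by 1.10 on the log2 scale in GM against PM (SE 0.10, adjusted p = 4.11e-06 by edgeR). It rose in DM against GM (log2 fold change 0.58, SE 0.10, adjusted p = 5.15e-04 by edgeR) and stayed below PM (log2 fold change -0.53, SE 0.10, adjusted p = 8.61e-04 by edgeR). The nonmuscle regulatory chains MYL12A and MYL12B, close in sequence to MYL9, are not paired with a symbol in these tables, so reads shared with them cannot be traced.

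MYH9 and MYH10 encode nonmuscle heavy chains that serve adhesion and cell division, and they differed in course. MYH9 (ENSGALG00000043092, chromosome 1, 51802991 to 51870983, plus strand) stood at 309, 279 and 263 FPKM in PM, 446, 422 and 355 FPKM in GM and 381, 382 and 385 FPKM in DM. All GM and DM values were above all PM values. It rose by edgeR in GM against PM (log2 fold change 0.37, SE 0.083, adjusted p = 0.00196 by edgeR), but with a gene length trend removed, described below, it fell by 0.30 on the log2 scale (adjusted p = 0.00218 by edgeR). For DM against PM the corresponding values were 0.34 (SE 0.083, adjusted p = 0.00349 by edgeR) and -0.21 (adjusted p = 0.0154 by edgeR). In DM against GM its log2 fold change was -0.033 (SE 0.083, adjusted p = 0.751 by edgeR).

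MYH10 (ENSGALG00000001183, chromosome 18, 1762822 to 1855756, minus strand) stood at 60.8, 57.4 and 54.0 FPKM in PM, 68.8, 66.1 and 53.0 FPKM in GM and 198, 198 and 235 FPKM in DM. PM and GM overlapped, and DM was far above both. MYH10 rose in DM against GM (fitted fold 3.50, log2 fold change 1.81, SE 0.099, adjusted p = 7.57e-08 by edgeR) and in DM against PM (fitted fold 3.44, log2 fold change 1.78, SE 0.099, adjusted p = 7.33e-08 by edgeR). With the length trend removed the log2 fold change in DM against PM was 1.02. In GM against PM it was -0.024 (SE 0.096, adjusted p = 0.838 by edgeR), and -0.93 with the length trend removed (adjusted p = 2.12e-06 by edgeR). MYH10 overlaps the opposite-strand gene NDEL1 by 682 bases, and NDEL1 had 1063 to 1928 reads per library against 8344 to 44787 for MYH10.

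MYH11 was low but rose at each step (ENSGALG00000006520, chromosome 14, 7610019 to 7666669, minus strand). It stood at 1.37, 1.21 and 1.55 FPKM in PM, 3.28, 3.07 and 2.66 FPKM in GM and 5.69, 6.35 and 6.50 FPKM in DM, with no overlap between groups. The log2 fold changes were 0.97 in GM against PM (SE 0.12, adjusted p = 2.80e-05 by edgeR) and 1.10 in DM against GM (SE 0.11, adjusted p = 7.56e-06 by edgeR). Between DM and PM the fitted fold was 4.20 (log2 fold change 2.07, SE 0.12, adjusted p = 9.55e-08 by edgeR). With the length trend removed the log2 fold change in GM against PM was 0.32 (adjusted p = 0.0311 by edgeR).

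Counted together, 6 members rose and 2 fell of 10 in GM against PM, where 66.1% of all tested genes were called (32.0% rose and 34.1% fell). The sarcomeric members held 4 rises and 1 fall of 6, with a median log2 fold change of 1.35, and the smooth and nonmuscle members 2 rises and 1 fall of 4, with a median of 0.17. Without GM replicate 3 the sarcomeric members held 5 rises and 1 fall, with a median of 1.04, and the others 2 rises and 1 fall, with a median of 0.26. After removal of the length trend the smooth and nonmuscle members held 1 rise and 3 falls, with a median of -0.60, and the sarcomeric members 5 rises and 1 fall. The median over all tested genes was -0.012. FPKM ranges did not overlap for 9 of 10 members and for 69.8% of all tested genes, with 7 members wholly above (40.1% of all) and 2 wholly below (29.7% of all). Of the 10 members, 6 rose and 4 fell with the length trend removed. A change of 2-fold or more was called for 3 members that rose and 1 that fell, and for 26.5% of all tested genes.

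In DM against GM, 5 members rose and 2 fell, against 61.1% of all tested genes called (30.8% rose and 30.3% fell). The sarcomeric members held 2 rises and 2 falls of 6, with a median log2 fold change of -0.48 (-0.11 without GM replicate 3), and the smooth and nonmuscle members 3 rises and 0 falls of 4, with a median of 0.84. The 0 falls by edgeR were also 0 by DESeq2, by limma on FPKM and at an unadjusted edgeR p below 0.05. FPKM ranges did not overlap for 8 of 10 members and for 66.5% of all tested genes, with 5 members wholly above (30.8% of all) and 3 wholly below (35.8% of all). MYL1 was among the 3 below in FPKM, but its ranges overlapped on scaled log2 CPM. A change of 2-fold or more was called for 4 members that rose and 2 that fell, and for 23.8% of all tested genes.

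In DM against PM, 7 members rose and 2 fell, against 66.2% of all tested genes called (33.5% rose and 32.7% fell). The sarcomeric members held 4 rises and 1 fall of 6, and the smooth and nonmuscle members 3 rises and 1 fall of 4. Their medians were 1.07 and 1.06. With the length trend removed the medians were 1.02 and 0.40, and the smooth and nonmuscle members held 2 rises and 2 falls. MYL10 had the highest log2 fold change of the members counted as sarcomeric (2.06), so the closeness of 1.07 and 1.06 depends on its placing. It rose in each of the 3 comparisons, and class counts and class medians were not recomputed with MYL10 moved. The median over all tested genes was 0.020. Ranges did not overlap for 9 of 10 members and for 73.7% of all tested genes, with 7 members wholly above (41.3% of all) and 2 wholly below (32.4% of all). A change of 2-fold or more was called for 5 members that rose and 1 that fell, and for 28.1% of all tested genes. With the length trend removed 6 rose and 3 fell. With most tested genes called in each comparison, a call is not particular to these genes. The 3 comparisons share libraries pairwise, and their calls are not independent.

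**Figure D2:**
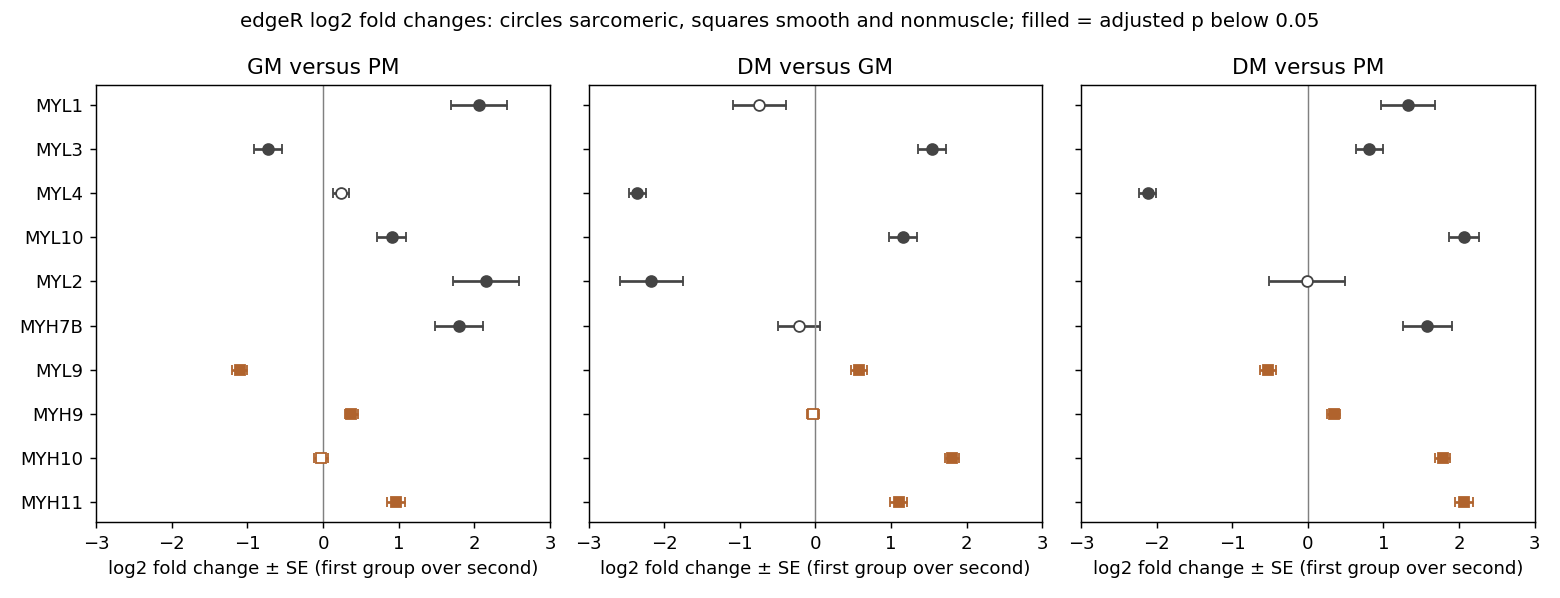
edgeR log2 fold changes with their SE for the 10 members (vertical axis) in GM against PM, DM against GM and DM against PM, the first-named group on top of the ratio. Filled symbols are called members, and in DM against GM the extremes are MYL4 at -2.36 and MYH10 at 1.81.

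Whether a gene moved differently at the later step than at the earlier one was tested as the change of DM over GM minus the change of GM over PM. This difference was called for 8 of 10 members and for 64.2% of all tested genes. It was positive for MYL3, MYL9 and MYH10 (log2 differences 2.27, 1.68 and 1.83, adjusted p = 9.91e-05, 1.37e-05 and 4.70e-06 by edgeR). It was negative for MYL1, MYL2, MYL4 and MYH7B (log2 differences -2.80, -4.32, -2.60 and -2.01, adjusted p = 0.00325, 1.94e-04, 4.83e-07 and 0.00383 by edgeR). That of MYL1 was -1.55 without GM replicate 3. The difference for MYH9 was -0.41 (adjusted p = 0.0259 by edgeR), missed the threshold when PM replicate 2, PM replicate 3, GM replicate 1 or GM replicate 2 was left out (-0.27 to -0.40), and was 0.39 with the length trend removed. For MYL10 and MYH11 it was 0.24 and 0.13 (adjusted p = 0.534 and 0.586 by edgeR), with SEs of 0.32 and 0.20. For MYL10 it reached 0.77 without GM replicate 3 (adjusted p = 0.00546 by edgeR), and for MYH11 it reached 0.89 with the length trend removed (adjusted p = 0.00235 by edgeR).

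Because light chain genes are short and heavy chain genes long, the length trend bears on them unequally. The listed lengths of the 6 light chain genes were 717 to 1309 bases and those of the 4 heavy chain genes 5927 to 9354 bases. Tested genes were put into 8 bins of equal size by listed length, and the shortest bin had a median of -0.28 on the log2 scale in GM against PM and the longest bin a median of 0.52. In DM against PM these medians were -0.15 and 0.43, and in DM against GM they were 0.078 and -0.14. Removing the trend from each library changed the direction of a called member only for MYH9.

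The composition of each chain family, as shares of summed FPKM of the members, also shifted. These shares leave out MYL6, an essential light chain outside the members, whose mean FPKM was 4245, 1072 and 2276 in PM, GM and DM. Among the essential light chain members MYL1 made up 77.8% ± 0.540 in PM, 92.7% ± 3.05 in GM and 91.6% ± 0.885 in DM (SD, n = 3 each). MYL4 made up 13.9% ± 0.713, 5.77% ± 2.68 and 1.51% ± 0.172, and MYL3 8.25% ± 0.296, 1.58% ± 0.368 and 6.86% ± 0.863 in PM, GM and DM. MYL4 was thus above MYL3 in each PM and GM library and below it in each DM library. The ratio of MYL3 to MYL4 FPKM was 0.569, 0.563 and 0.651 in PM, 0.242, 0.247 and 0.432 in GM and 5.43, 3.98 and 4.30 in DM.

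Among the regulatory light chains, MYL9 made up 91.8% ± 0.469 in PM, 73.4% ± 4.71 in GM and 65.5% ± 0.530 in DM, and MYL10 made up 8.02% ± 0.516, 25.5% ± 4.35 and 34.3% ± 0.492. MYL2 averaged 0.148%, 1.10% and 0.146%. Among the heavy chain members MYH9 made up 82.8% ± 0.382 in PM, 86.1% ± 0.251 in GM and 63.9% ± 2.13 in DM. MYH10 made up 16.8% ± 0.357, 13.2% ± 0.287 and 35.0% ± 2.13, so the ratio of MYH10 to MYH9 FPKM was 0.203, 0.153 and 0.549 on average in PM, GM and DM. These shares cover the members alone. The heavy chain shares leave out MYH13 and MYH15, and MYH15 averaged 63.9, 242 and 94.4 FPKM in PM, GM and DM. The symbols MYLPF and MYH1A to MYH1G, the fast regulatory chain and the fast heavy chains of chicken skeletal muscle, are not paired with a gene in these tables and are not analysed here.

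**Figure D3:**
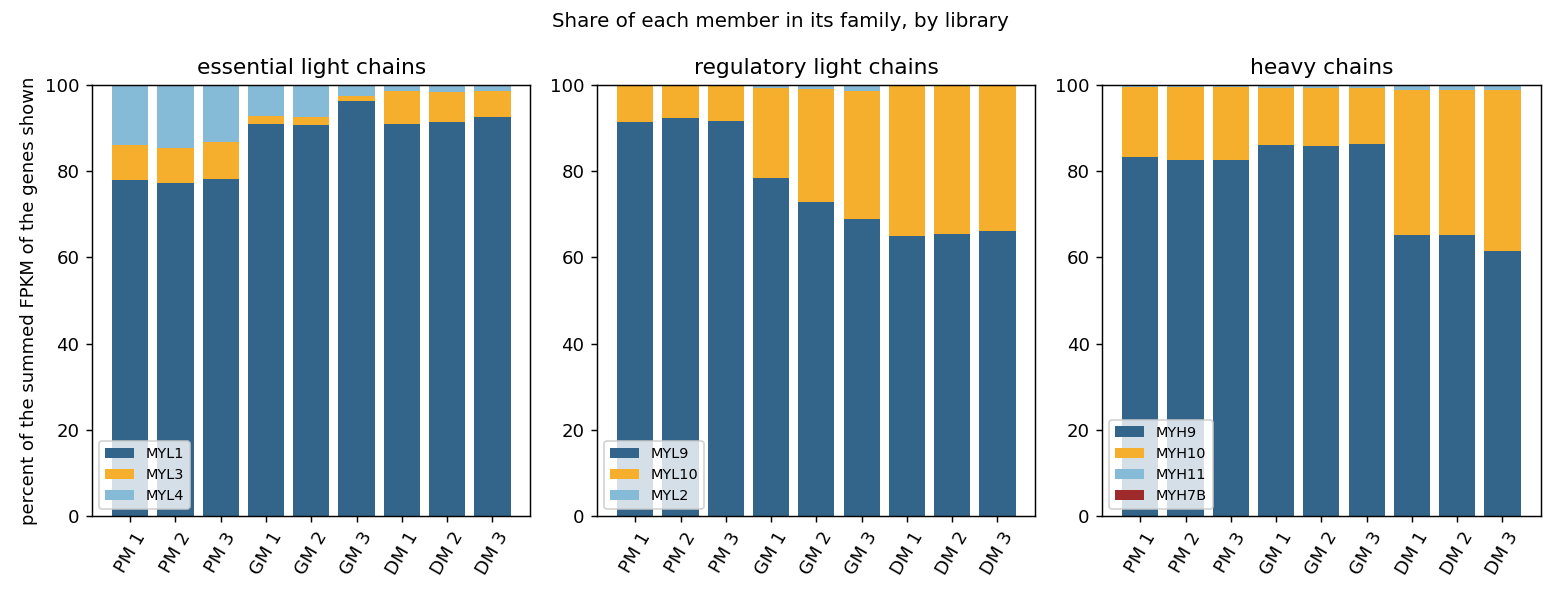
Share of each member in the summed FPKM of the essential light chain, regulatory light chain and heavy chain members (vertical axis, percent), 1 bar per library. MYL10 is 7.46% to 8.48% of the regulatory chains in PM libraries and 33.8% to 34.8% in DM libraries, and MYH10 takes 33.8% to 37.5% of the heavy chains in DM.

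Summed over the class, sarcomeric members stood at 211, 217 and 227 FPKM in PM, 550, 517 and 1217 FPKM in GM and 602, 560 and 584 FPKM in DM. Smooth and nonmuscle members stood at 820, 803 and 806 FPKM in PM, 766, 707 and 669 FPKM in GM and 969, 926 and 939 FPKM in DM. The ratio of the sums was 0.257 to 0.281 in PM, 0.718, 0.731 and 1.82 in GM and 0.605 to 0.622 in DM. With MYL10 counted among the smooth and nonmuscle members it was 0.197 to 0.216 in PM, 0.561 to 1.42 in GM and 0.337 to 0.386 in DM. Only in GM replicate 3 did the sarcomeric sum exceed the smooth and nonmuscle sum, and this order holds for the members alone. Both sums leave out MYL6 and MYH15, given below, which stood at 1061 and 365 FPKM in GM replicate 3. They also leave out MYH13 and the chains not paired with a symbol, among them MYLPF, MYL12A, MYL12B and MYH1A to MYH1G. The ratio therefore does not measure the balance of the whole class. MYL1 made up 59.5% to 87.0% of the sarcomeric sum, while MYL9 was the largest part of the other sum in PM libraries and DM replicate 1 and MYH9 in the remaining libraries. The ratio of MYL1 to MYL9 was 0.293 to 0.297 in PM, 1.76, 1.84 and 4.11 in GM and 0.931, 1.03 and 1.25 in DM.

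**Figure D4:**
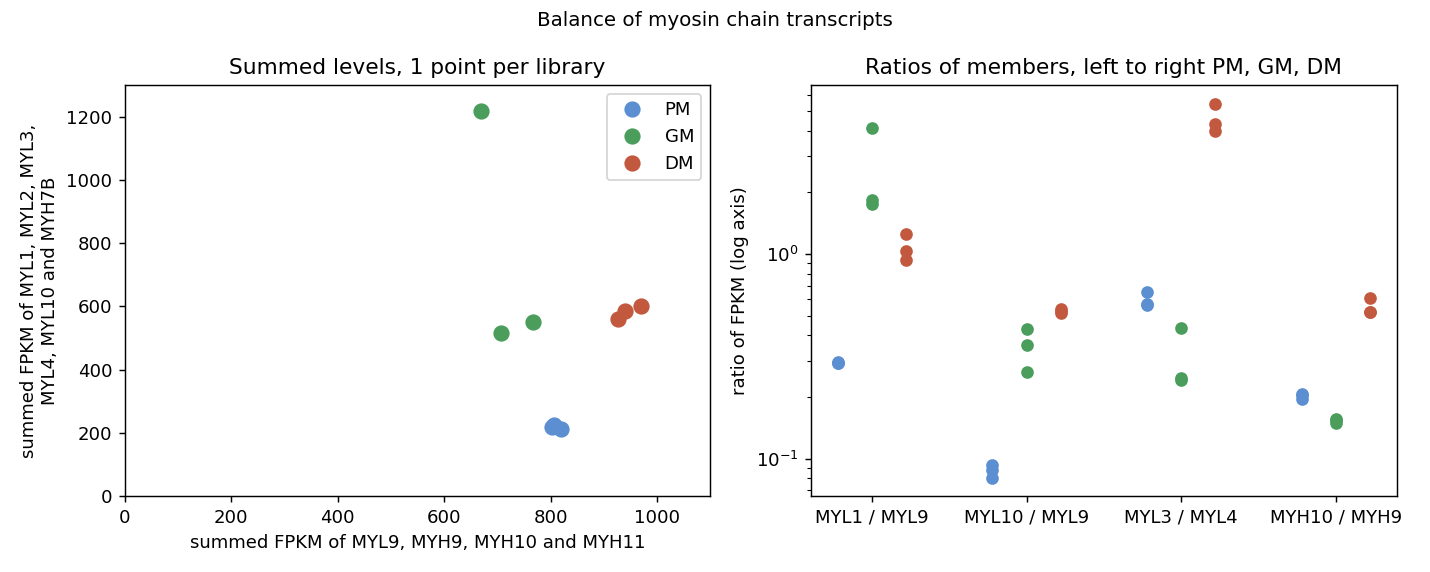
Left, summed FPKM of the 6 sarcomeric members (vertical) and of the 4 smooth and nonmuscle members (horizontal), 1 point per library. Right, ratios of FPKM of member pairs on a log axis, with GM replicate 3 at 4.11 for MYL1 over MYL9 and DM libraries at 3.98 to 5.43 for MYL3 over MYL4.

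GM replicate 3 deviated in some members and not in others. On the log2 CPM scale MYL1 lay 1.40 above the mean of GM replicates 1 and 2, MYL2 1.06, MYL3 and MYL10 0.68 each and MYH7B 0.32. MYL9 lay 0.21 above, while MYL4, MYH11, MYH9 and MYH10 lay at -0.13, -0.20, -0.23 and -0.29. The summed FPKM of 10 skeletal muscle markers was 5437 in that library, against 2937 to 3001 in the other GM libraries. Genes of other kinds deviated too. C1QA, a macrophage marker, stood at 28.8 FPKM in that library, against 10.1 and 11.2 FPKM in the other GM libraries. Lower there was COL1A2, a fibroblast marker, at 415 against 718 and 815 FPKM. Within the skeletal muscle markers, MYF5 and MYF6 went against the sum. MYF5 stood at 185 FPKM in that library against 360 and 336 FPKM, and MYF6 at 33.4 against 54.2 and 44.3 FPKM. The part of these differences in the MYL1 values was not tested.

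Other class II chains named in the tables are MYL6, MYH13 and MYH15. MYL6, the essential light chain of nonmuscle and smooth muscle myosin, exceeded every member, with 4101, 4279 and 4356 FPKM in PM, 1057, 1099 and 1061 FPKM in GM and 2380, 2320 and 2129 FPKM in DM. Like its partner chain MYL9 it was lowest in GM, with a log2 fold change of -2.13 in GM against PM (SE 0.073, adjusted p = 1.12e-08 by edgeR) and of 1.14 in DM against GM (SE 0.070, adjusted p = 1.78e-07 by edgeR). MYH15, a heavy chain known from the chick ventricle, stood at 65.5, 63.3 and 62.8 FPKM in PM, 193, 169 and 365 FPKM in GM and 91.6, 90.8 and 101 FPKM in DM. It rose in GM against PM (log2 fold change 1.79, SE 0.27, adjusted p = 4.83e-04 by edgeR) and fell by 1.31 on the log2 scale in DM against GM (SE 0.27, adjusted p = 0.00291 by edgeR), or by 0.86 without GM replicate 3. MYH15 was above MYH7B in every library.

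Enzymes that set the phosphorylation of regulatory light chains were followed as a list of 19 genes, of which 14 had a symbol in the tables and were tested. In GM against PM 9 rose and 0 fell by edgeR, also 0 by DESeq2 and at an unadjusted p below 0.05, and 5 rose and 1 fell with the length trend removed. In DM against GM 4 rose and 6 fell, and in DM against PM 10 rose and 2 fell. The median log2 fold changes were 0.37, 0.0071 and 0.64. Removing the length trend gave 0.11, -0.00058 and 0.31, and in DM against PM 7 rises and 3 falls. The shares of all tested genes called were 66.1%, 61.1% and 66.2% in the same order of comparisons. MYLK, the smooth muscle light chain kinase that phosphorylates MYL9, stood at 26.5, 25.8 and 27.2 FPKM in DM, against 3.93, 4.36 and 4.72 FPKM in GM (log2 fold change 2.67, SE 0.085, adjusted p = 2.03e-09 by edgeR). MYLK2, the skeletal muscle kinase, rose to 6.83 ± 0.644 FPKM in DM, against 2.30 ± 1.38 FPKM in GM (adjusted p = 0.00313 by edgeR), and leaving out GM replicate 3, at 3.88 FPKM, lowered the GM mean to 1.503 FPKM. CIT, the citron kinase of cytokinesis, fell to 0.748 ± 0.185 FPKM in DM, against 6.13 ± 2.05 FPKM in GM (adjusted p = 5.65e-06 by edgeR).

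Chaperones and partners of sarcomeric myosin in the thick filament formed a list of 19, of which 16 were tested. In GM against PM 15 rose and 0 fell by edgeR, also 0 by DESeq2 and at an unadjusted p below 0.05, with a median log2 fold change of 2.40, and in DM against GM 1 rose and 13 fell, with a median of -1.34. The median in GM against PM was 1.89 without GM replicate 3, with counts of 15 and 0, and in DM against GM 2 rose and 12 fell without it. In DM against PM 8 rose and 3 fell, with a median of 0.70, which was 0.41 with the length trend removed. Of all tested genes 32.0% rose in GM against PM, 30.3% fell in DM against GM and 33.5% rose in DM against PM. UNC45B, the muscle myosin chaperone, fell to 9.09, 9.45 and 9.62 FPKM in DM, against 41.1, 39.6 and 84.1 FPKM in GM (log2 fold change -2.50, SE 0.29, adjusted p = 1.09e-04 by edgeR). MYBPC1, slow myosin binding protein C, was the 1 gene of the list to rise in DM against GM, with 7.26 ± 1.53 FPKM in DM and 1.10 ± 1.05 FPKM in GM (adjusted p = 0.00277 by edgeR). GM replicate 3 stood at 2.31 FPKM, and without that library the GM mean was 0.496 FPKM.

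Among 24 unconventional myosins, which carry cargo and tether membranes, 18 were tested. In GM against PM 7 rose and 3 fell, in DM against GM 6 rose and 4 fell, and in DM against PM 10 rose and 4 fell. With the length trend removed the counts were 4 and 6 in GM against PM and 5 and 5 in DM against PM, so their balance depended on removing the length trend. Of all tested genes 66.1% were called in GM against PM, 61.1% in DM against GM and 66.2% in DM against PM. MYO18B, a sarcomere-associated myosin, rose to 13.1 ± 4.86 FPKM in GM, against 2.04 ± 0.0535 FPKM in PM (adjusted p = 1.19e-05 by edgeR), and fell to 4.10 ± 0.330 FPKM in DM relative to GM (adjusted p = 1.78e-04 by edgeR).

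The genes with the most similar profiles were found by the mean absolute difference of centred log2 CPM over the 9 libraries, among 7729 genes with a symbol and at least 5 FPKM in a group. For MYL1 the nearest was CHRNG (0.094 log2 units), a fetal acetylcholine receptor subunit, followed by EEF1A2. For MYL2 it was DES (0.26) and for MYL4 CMKLR1 (0.091), followed by MCM2, a replication helicase subunit. MYL3 was nearest to EGFL7 (0.10), MYL9 to PRDX6 (0.045), MYH9 to ARMC1 (0.051), MYH10 to DACT1 (0.090) and MYH11 to USP40 (0.091). MYL10 was nearest to ULK1 (0.18) and MYH7B to PRDM2 (0.20), and MYL2 had the most distant nearest gene of the 10. The profiles of MYL2 and MYH7B rest on few reads, 6 to 111 per library. Between members, MYL10 and MYH11 were closest (0.23), then MYL1 and MYH7B (0.37). All these distances share the same libraries, GM replicate 3 among them, and are descriptions. They were not computed without that library.

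Markers of other cell types moved with several members in DM against GM, but not in every comparison. For 10 smooth muscle and myofibroblast markers other than the members, 6 rose and 1 fell in DM against GM, and their summed FPKM was 5188 to 5741 in DM and 2261 to 2718 in GM. In PM it was 4283 to 4411. TPM1 was the largest part of the sum in PM and GM, with medians of 2162 and 1552 FPKM, and stood at 1654 FPKM in DM. In GM against PM 1 of these markers rose and 6 fell, where MYL9 also fell but MYH11 rose and MYH10 was not called. In DM against PM 4 rose and 1 fell, where MYH10 and MYH11 rose and MYL9 fell. ACTA2, smooth muscle actin, was the largest part of the sum in DM. It stood at 1991, 1987 and 1800 FPKM there, against 139, 117 and 123 FPKM in GM and 290, 282 and 278 FPKM in PM. For 9 fibroblast markers the sums were 1898 to 2007 FPKM in PM, 1094 to 1894 FPKM in GM and 3973 to 4623 FPKM in DM, and 6 rose and 1 fell of 8 tested in DM against GM. Of all tested genes 30.8% rose and 30.3% fell in DM against GM. No gene of either list was at 0 reads in any group. MYL9, MYH10 and MYH11 rose in DM against GM beside these lists, whose part in the result was not tested. In bulk RNA, fewer cells of a type and less RNA per cell cannot be told apart.

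The 12 macrophage and leukocyte markers summed to 1073 to 1119 FPKM in PM, 140 to 279 FPKM in GM and 230 to 255 FPKM in DM. In GM against PM 0 rose and 12 fell by edgeR, and in DM against PM 0 rose and 11 fell, with the same counts by DESeq2 and at an unadjusted p below 0.05. Between DM and GM 3 rose and 0 fell, against 10 and 0 without GM replicate 3, 4 and 0 by DESeq2, and 6 and 0 at an unadjusted p below 0.05. Their part in the lower MYL9 level of GM was not tested. Summed skeletal muscle markers were 1567 to 1684 FPKM in PM, 2937 to 5437 FPKM in GM and 1694 to 1805 FPKM in DM. Of these 10 markers 7 rose and 3 fell in GM against PM. In DM against GM 0 rose and 6 fell, with 0 and 7 by DESeq2. These counts were 0 and 9 at an unadjusted edgeR p below 0.05, and 0 and 8 without GM replicate 3. In DM against PM 5 rose and 3 fell, so the similar sums of PM and DM cover opposite shifts. Median FPKM in PM and DM was 416 and 34.1 for MYF5, and 59.3 and 357 for TNNT3. Of the cardiac markers listed, NKX2-5, GATA4, TBX5 and TBX20 were at most 0.700 FPKM in any library, with NKX2-5 at 0 reads in DM and GATA4 at 0 reads in PM. MYBPC3, also in the thick filament list, stood at 4.16 to 5.18 FPKM in PM, 43.96 to 95.6 FPKM in GM and 29.8 to 34.9 FPKM in DM. The cardiac markers TNNT2, TNNI3, NPPA and NPPB are not paired with a gene in these tables. The 7 endothelial markers summed to 5.79 to 9.37 FPKM over all libraries. Beside these marker counts, 66.1%, 61.1% and 66.2% of all tested genes were called in GM against PM, DM against GM and DM against PM.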

How the data were processed

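The members and gene lists were chosen with earlier results of these data known. Per the submitters' processing notes, HISAT and HTSeq were used, with no version; the genome build, annotation and strand setting used are not stated in the labels. The deposited tables hold raw read counts and FPKM values per feature, per the file headers. For 56.0% to 57.1% of genes with at least 50 reads the authors' FPKM used the listed length (tolerance 0.001), otherwise another length. Among the members only MYL2 and MYH9 had the listed length, and the others had a shorter one. MYL1 had 1030 bases against 1251 listed, MYL3 957 against 1309, MYL4 824 against 950 and MYL9 1099 against 1149. Orders, shares, sums and ratios between genes were not recomputed with the listed lengths, so close orders may depend on them.

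Features with no Ensembl identifier (1.58% to 2.12% of reads) and 2 broken lines in each GM and DM table were left out. Counts were filtered with filterByExpr and scaled by TMM. All 9 samples entered 1 quasi-likelihood fit (edgeR 4.0.16, R 4.3.3, robust dispersion), and genes with a Benjamini-Hochberg adjusted p under 0.05 over all 14796 were called. The SE was taken as the log2 fold change, without sign, over the root of F. The code was tested on simulated data. It recovered 37.3% to 47.8% of simulated 1.5-fold changes, depending on the comparison. The ranges were 67.2% to 83.6% at 2-fold and 95.5% to 98.5% at 4-fold, so small changes can go uncalled. A count of 3 reads equals 0.111 to 0.191 CPM, which covers counting error only. Replicates differed beyond sampling noise (chi-square 6.10 to 63.0 per gene). Alternatives used DESeq2 1.42.0 or the DESeq2 size factors, limma 3.58.1 on log2(FPKM + 1) and log2(FPKM + 0.1), no filter, at least 5 FPKM, each pair of groups alone, a replicate block, a lowess (span 0.3) that removes the gene length trend, all features, a 2-fold minimum, and omission of each library in turn. All members are named. From each other list up to 3 called genes with the largest change and at least 5 FPKM are eligible in a comparison, and from the profile search the 3 nearest genes per member; defining markers are named besides. Class counts and list counts without GM replicate 3 or without the length trend, class sums with MYL10 moved, and list counts by DESeq2 and at unadjusted p were chosen after seeing the data.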

Additional observations from a re-analysis of the deposited data

How the results depend on the processing

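Of 742 values of 40 member results under 19 alternatives, 702 kept direction and side of the threshold, 13 gained and 4 lost the threshold and 23 changed sign. A 2-fold minimum left 3 rises and 1 fall in GM against PM and 1 fall in DM against PM. With the length trend removed 4 members fell in GM against PM, and an FPKM minimum of 5, which removes MYL2 and MYH7B, left 1 fall in DM against GM. Leaving out single replicates gave 6 to 7 rises and 2 falls in GM against PM, 5 rises and 2 to 3 falls in DM against GM, 7 rises and 2 falls in DM against PM and 7 to 9 called differences between steps. Among called results only MYH9 changed sign, with the length trend removed: -0.30 in GM against PM, -0.21 in DM against PM and 0.39 for the difference between steps. The causes were not tested.

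The other sign changes were of uncalled values near 0. MYH10 in GM against PM was 0.0301 with an FPKM minimum of 5, 0.12 and 0.12 by limma on log2(FPKM + 1) and log2(FPKM + 0.1), 0.0369 in the 2-group fit, 0.00933 with all features, and -0.0944 to 0.0679 when single replicates were left out. The median over all genes was 0.13 on log2(FPKM + 0.1) in that comparison and -0.012 in edgeR. MYH9 in DM against GM was 0.0886 with the length trend removed and -0.11 to 0.0339 without single replicates. MYL2 in DM against PM was 0.0232 and 0.0364 by limma on the FPKM scales, 0.15 with the length trend removed, 0.0213 with all features and -0.44 to 0.23 without single replicates. The difference between steps was -0.0662 for MYL10 with the length trend removed, -0.0627 to 0.77 without single replicates, and -0.0517 for MYH11 on log2(FPKM + 0.1).

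Same-numbered replicates did not deviate together more than other pairs (correlations across genes -0.11 to 0.10, against -0.12 to 0.13). With 3 libraries per group this cannot exclude a shared origin, so whether the numbers pair samples is not known. With a replicate block the counts of called members were 6 and 2, 5 and 2, and 7 and 2 in the order of comparisons above, and MYL2 in DM against PM was 0.0212 (edgeR adjusted p = 0.974). MYL2 and MYH7B, with 6 to 111 reads per library, are limited by depth.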
